A study of Mus musculus with 15 samples.

Results

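The genes described here are the heat shock proteins and their J-domain and chaperonin partners in the brains of mice subjected to middle cerebral artery occlusion (MCAO), a model of ischemic stroke. They were chosen by gene symbol alone: Hsp90, Hspa, Hspb, Hspd, Hspe and Hsph genes, Dnaja, Dnajb and Dnajc genes, the CCT subunits Cct2 to Cct8 with Tcp1, and Chordc1. Of 82 such symbols in the table, 81 had a nonzero count in at least 1 library and are the members, out of 18931 genes in all. Dnajc5g was at 0 in every library. The members are 27 DNAJC, 12 DNAJB and 4 DNAJA genes, 11 HSP70 genes, 10 CCT genes, 8 small heat shock protein genes, 3 HSP110 genes, 3 HSP90 genes, the HSP60 and HSP10 pair, and Chordc1.

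Messenger RNA was sequenced from brains of Kunming mice, in 5 groups of 3 libraries each. Mice with MCAO received the treatments labelled JA, UA or JU, or vehicle, and the last group was sham. The titles call the sham libraries MCAO mice as well, with sham as the treatment. Jasminoidin and ursodeoxycholic acid are named together in the study's title, but no label says what JA, UA and JU stand for or that JU is their combination. The sources used here give no dose, time, age, brain region or hemisphere. Since no label says that the 3 libraries of a group are separate mice, a p-value here reflects the spread among these samples alone, and that spread may be technical.

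Chaperones bind unfolded proteins and help them reach or regain their native shape. HSP70 proteins do this in cycles of ATP hydrolysis, started by J-domain proteins of the DNAJ families and reset by nucleotide exchange factors such as the HSP110 proteins. HSP90 proteins finish the folding of kinases and steroid receptors, the CCT ring folds actin and tubulin, and HSP60 with its lid HSP10 folds proteins in the mitochondrial matrix. Small heat shock proteins hold unfolded proteins without ATP. Under heat, ischemia or other stress the transcription factor HSF1 binds heat shock elements, repeats of the unit GAA in alternating orientation, and raises the inducible members, while HSP70, HSP90 and J-domain proteins of the endoplasmic reticulum follow the unfolded protein response.

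Total counts were 18346180 to 20447465 per library. Levels below are CPM (a gene's counts scaled to library size, with TMM factors), with the 3 libraries of a group in order of replicate number. Of the 81 members, 75 passed the filter on low counts and were tested. The other 6 are Cct6b, Cct8l1, Dnajb7, Dnajc22, Dnajc5b and Hspb9, with at most 8 counts in any library. JU replicate 1 lay farthest out on the first principal component, which held 66.5% of the variance. It lay on the side of the vehicle libraries and beyond them, with vehicle replicate 2 next. JA replicate 1, at -25.3, lay near vehicle replicates 1 and 3 (-27.1 and -29.7). JA replicates 2 and 3 lay at 30.4 and 43.2. The 12 microglia markers, none of them at 0 in any library, summed to 570.1 to 1727 CPM in JA, 715 to 1259 CPM in UA, 6123 CPM in JU replicate 1, 644 and 1699 CPM in the other JU libraries, 1983 to 4544 CPM in vehicle and 508 to 567 CPM in sham. The 12 neuron markers summed to 10166.5 to 12728 CPM in JA, 11546 to 12114.5 CPM in UA, 4626 CPM in JU replicate 1, 10703 and 12089 CPM in the other JU libraries, 7267 to 10138 CPM in vehicle and 11988 to 12240 CPM in sham. In whole tissue, fewer cells of a type and less RNA per cell cannot be told apart. Genes of low GC content were also lower in every vehicle and JU library: in the decile of lowest GC content the median deviation was -0.190 to -0.102 on the log2 scale there, against 0.0327 to 0.165 in the JA, UA and sham libraries.

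Most of these genes are expressed at all times in the brain. In sham, per transcript length, Hsp90ab1, the constitutive cytosolic HSP90, led with 824 ± 13.2 FPKM, followed by Hspa8, the constitutive HSP70, with 571 ± 29.03 FPKM (SD, n = 3). Hsp90aa1, the stress-responsive HSP90, stood at 400 ± 28.5 FPKM and Hsp90b1, the HSP90 of the endoplasmic reticulum, at 134 ± 13.1 FPKM. Only these 4 members exceeded a sham mean of 100 FPKM, while 52 reached 10 FPKM and 71 reached 1 FPKM. The members together took 1.113% to 1.2% of all counts in JA libraries, 1.155% to 1.181% in UA, 0.9193% to 1.06% in JU, 0.9515% to 1.049% in vehicle and 1.141% to 1.218% in sham. On this share no JU or vehicle library reached any JA, UA or sham library.

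Heat shock elements were searched in the 250 bases before each RefSeq transcription start (GRCm38.p6), since they are the sequence through which HSF1 acts. A pair of units was written GAANNTTC, with N for any base, which reads the same on both strands. An element of 3 units was such a pair with NNGAA after it or TTCNN before it, and each such match also holds a pair. A window was found for 66 of the 81 members, 85 windows in all. A pair was present in 14 member windows, or 16.5%, against 6.6% of 32851 windows of all genes. A 3-unit element was present in 4 member windows, or 4.71%, against 0.46%. Windows can overlap, so these shares count some sites more than once. By member, 13 of the 66 held a pair and 3 a 3-unit element. Overlapping Dnajb6 windows hold the same 3-unit site, and the Hspd1 and Hspe1 windows share another. The sites below are those of 6 members with results described later, each in 30 bases with the matched units and the bases between them in capitals. The first lies before the Hspe1 start and before a RefSeq start of Hspd1, which is transcribed the other way, and holds 4 alternating units. It begins 89 bases before the Hspe1 start and lies within the annotated span of Hspd1. The window before the other Hspd1 start holds no match.
Hspe1 and Hspd1 (chr1:55088053-55088082, plus strand): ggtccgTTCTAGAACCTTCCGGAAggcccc
Dnajb6 (chr5:29735844-29735873, plus strand): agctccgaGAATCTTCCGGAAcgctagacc
Dnaja1 (chr4:40722333-40722362, plus strand): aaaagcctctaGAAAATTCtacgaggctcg
Hspb1 (chr5:135887801-135887830, plus strand): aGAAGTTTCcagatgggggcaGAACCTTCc
Hspa1a (chr17:34972242-34972271, minus strand): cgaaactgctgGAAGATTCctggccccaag

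The promoters of Hspb1 and Hspa1a, classic inducible members, are shown whole for their 250 bases, and that of Cct8, the member with the smallest p between vehicle and sham, for the 125 bases outside annotated exons. Hspb1 has 2 separate pairs, 117 and 97 bases before its start, and Hspa1a has 1 pair at 104 bases. The whole 250-base window of Cct8 holds no match, which says only that these letters are not in it.
Hspb1 (chr5:135887669-135887918, plus strand): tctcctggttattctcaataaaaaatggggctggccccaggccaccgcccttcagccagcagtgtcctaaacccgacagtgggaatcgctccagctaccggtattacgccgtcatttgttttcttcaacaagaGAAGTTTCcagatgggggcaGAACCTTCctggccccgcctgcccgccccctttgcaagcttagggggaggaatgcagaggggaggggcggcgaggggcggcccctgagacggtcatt
Hspa1a (chr17:34972157-34972406, minus strand): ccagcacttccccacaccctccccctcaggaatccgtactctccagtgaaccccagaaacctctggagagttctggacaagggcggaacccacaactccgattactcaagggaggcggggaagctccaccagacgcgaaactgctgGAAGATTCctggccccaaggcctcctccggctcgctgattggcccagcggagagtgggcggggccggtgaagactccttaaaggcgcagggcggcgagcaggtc
Cct8 (chr16:87495874-87495998, minus strand): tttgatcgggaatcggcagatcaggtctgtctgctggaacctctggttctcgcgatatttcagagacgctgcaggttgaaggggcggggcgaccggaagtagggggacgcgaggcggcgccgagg
Of the members called in any contrast below, 2 of the 10 with a window held a pair, Hspd1 and Dnaja1. Of the 56 other members with a window, 11 held a pair. These 56 include Cct6b, Cct8l1, Dnajb7 and Hspb9, which were not tested, and Cct8l1 is among the 11.

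Vehicle against sham shows these genes after occlusion without a test compound. Mitochondrial HSP60, several CCT subunits, cytosolic J-domain proteins and Chordc1 were lower in vehicle and no member was called higher. Of the 75 members tested, 13 fell and 0 rose at an adjusted p under 0.05, which is 17.3% of them. Of all 15125 genes tested, 4.24% fell and 0.787% rose, 5.02% together. DESeq2 called 18 of 74 members lower and 0 higher, where 8.99% and 6.93% of all genes were called. In 36 members every vehicle library lay below every sham library, and in 12 every one lay above, where 24.7% and 24.5% of all genes did so. The median log2 fold change was -0.14 over the members and 0.01 over all genes.

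**Figure D1:**
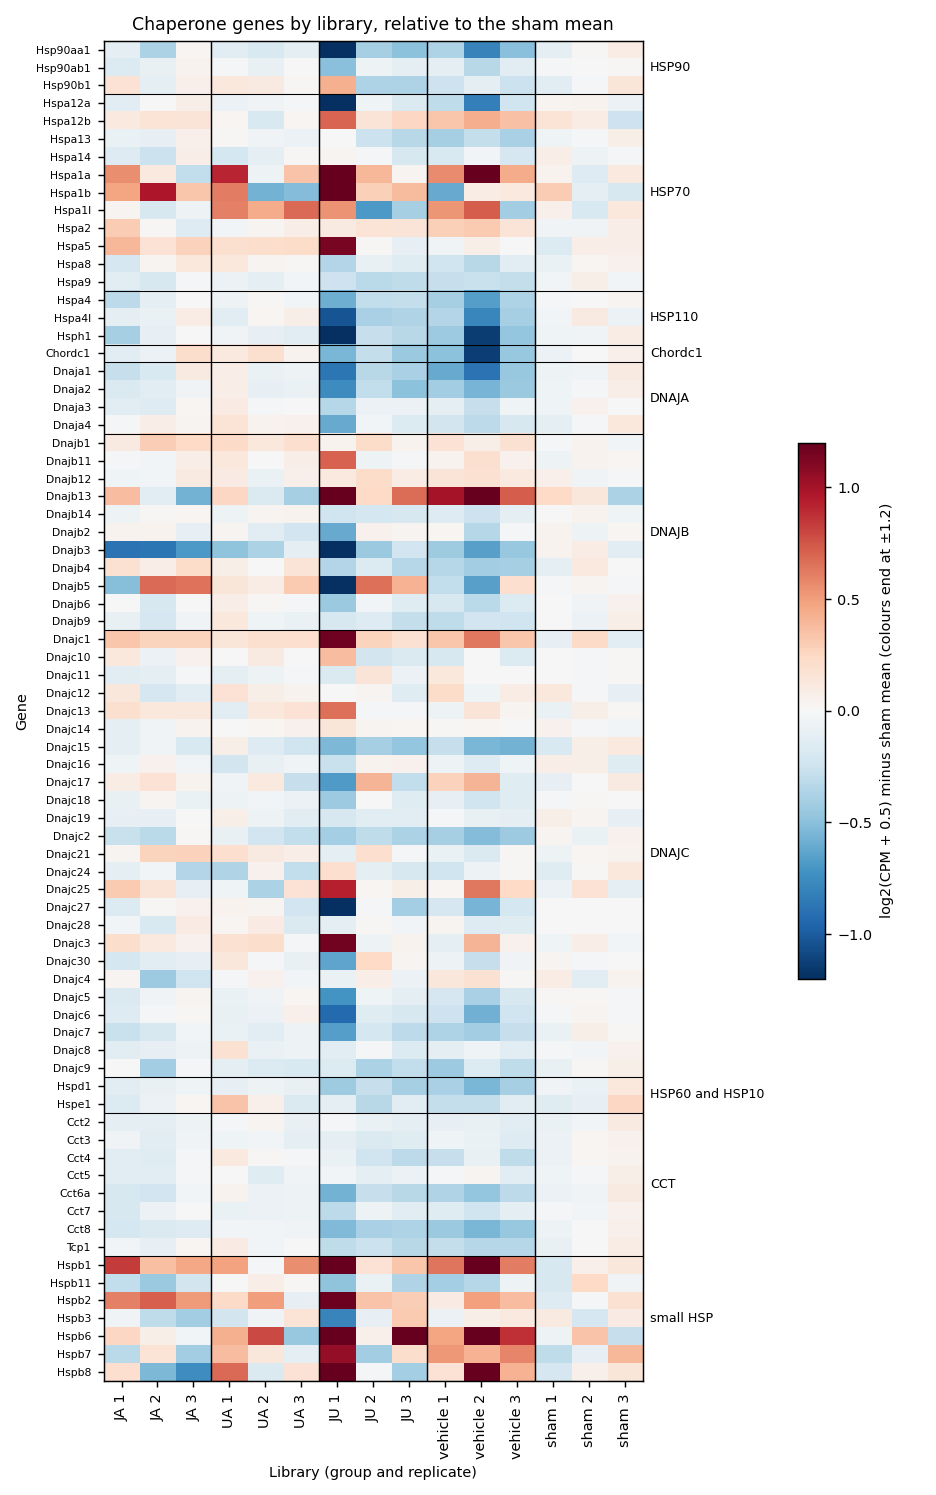
Level of each of the 75 tested members (rows, grouped by family) in each of the 15 libraries (columns, JA to sham), as log2(CPM + 0.5) minus the sham mean, with blue below and red above it and colours ending at ±1.2. The DNAJA, HSP110, HSP60 and HSP10 rows are blue in every vehicle and JU library, and Hspb1, Hspb6 and Hspb8 are red in JU replicate 1 and vehicle replicate 2.

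Hspd1, which encodes mitochondrial HSP60 (Entrez 15510; chromosome 1, 55077835 to 55088243, GRCm38), had 164, 169 and 173 CPM in JA, 168, 173 and 169 in UA, 134, 148 and 136 in JU, 137, 122 and 137 in vehicle and 175, 170.3 and 196 in sham. The 6 JU and vehicle libraries all lay below the 9 others, with no overlap. Hspd1 fell in vehicle against sham (log2 fold change -0.45 ± 0.08 SE, edgeR adjusted p = 0.0112). Its partner Hspe1, the HSP10 lid transcribed in the opposite direction, had 45.7, 48.9 and 52.2 CPM in JA, 65.4, 53.7 and 45.5 in UA, 47.6, 40.5 and 46.7 in JU, 42.1, 42.1 and 46.9 in vehicle and 46.2, 47.9 and 61.0 in sham. Hspe1 libraries overlapped between vehicle and sham, and the difference did not pass (-0.24 ± 0.14, adjusted p = 0.248). Hspa9, the mitochondrial HSP70 that pulls proteins into the matrix, had 237, 239 and 235 CPM in vehicle against 281, 302 and 280.1 in sham and fell (-0.28 ± 0.07, adjusted p = 0.0458). Dnajc15, a J-domain protein of the inner mitochondrial membrane, fell as well (-0.47 ± 0.12, adjusted p = 0.0375).

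The 8 genes of the CCT ring, whose products sit side by side in each ring, were uneven. Cct8 (Entrez 12469; chromosome 16, 87483326 to 87495873) had 176, 180.5 and 183 CPM in JA, 199.6, 199 and 198 in UA, 141, 156 and 157 in JU, 149, 139 and 149 in vehicle and 195, 204 and 213 in sham. Every JU and vehicle library of Cct8 was below every other library. Cct8 fell in vehicle against sham (log2 fold change -0.48 ± 0.07 SE, edgeR adjusted p = 0.00796), as did Tcp1 (-0.33 ± 0.07, adjusted p = 0.0265) and Cct6a (-0.38 ± 0.10, adjusted p = 0.0405). Tcp1, the first subunit, had 176, 169 and 169 CPM in vehicle and 201, 216 and 228 CPM in sham. The other 5 had negative fold changes that did not pass. Cct2 had 162, 163 and 159 CPM in vehicle and 165, 170.0 and 187 CPM in sham (-0.11 ± 0.07, adjusted p = 0.315), and Cct5 had 199, 207 and 185 against 195, 201 and 212 (-0.04 ± 0.07, adjusted p = 0.748). The median over the 8 subunits was -0.20 on the log2 scale, with a range of -0.48 to -0.04. Transcript GC content was 43.3% for Cct8 and 41.1% for Tcp1, against 47.4% for Cct6a. 12.5% of Cct6a exonic bases and 14.2% of Tcp1 exonic bases overlap another gene on the opposite strand. The share is 6.22% for Cct8 and, among called members outside the ring, 9.93% for Dnaja1 and 4.24% for Hspd1. The strand setting of the counts is not given in the sources used here, so the levels of these genes are uncertain.

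**Figure D2:**
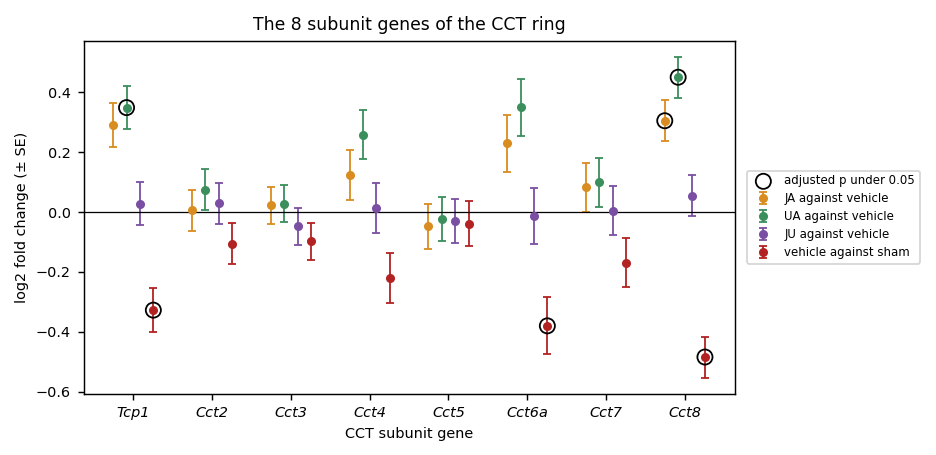
Log2 fold change ± SE of the 8 CCT subunit genes in JA, UA and JU against vehicle and in vehicle against sham, with circles round values at an adjusted p under 0.05. Cct8, Tcp1 and Cct6a lie lowest in vehicle against sham, Cct8 and Tcp1 are circled above 0 in UA and Cct8 in JA, and the JU values lie within 0.06 of 0.

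DNAJA and HSP110 genes, whose products drive and reset the HSP70 cycle, had negative fold changes in vehicle against sham, while DNAJB genes were mixed. Of the 4 DNAJA genes 2 fell. Of all genes tested 4.24% fell, the share to set beside the family counts here. Dnaja1, a farnesylated partner of Hspa8 (Entrez 15502; chromosome 4, 40722150 to 40737149), had 250.1, 267 and 326 CPM in JA, 319, 287 and 290.4 in UA, 166, 239.6 and 231 in JU, 199, 163 and 221 in vehicle and 289.7, 294 and 326 in sham (log2 fold change -0.64 ± 0.16 SE, edgeR adjusted p = 0.0367). JU replicate 1 and vehicle replicate 2 were its lowest libraries. Dnaja2, a close relative, fell by 0.48 on the log2 scale (adjusted p = 0.0283). Among the 11 tested DNAJB genes only Dnajb4, a stress-responsive cytosolic J-domain protein (Entrez 67035; chromosome 3, 152178511 to 152210302), was called, with 68.2, 63.6 and 70.1 CPM in JA, 62.9, 60.2 and 66.9 in UA, 46.9, 53.7 and 47.4 in JU, 47.2, 44.7 and 45.4 in vehicle and 55.6, 65.0 and 59.8 in sham (log2 fold change -0.39 ± 0.08 SE, edgeR adjusted p = 0.0182). Dnajb1, the main J-domain partner of HSP70 in the heat shock response, had 64.2, 73.2 and 70.4 CPM in JA, 69.7, 64.9 and 68.6 in UA, 61.3, 69.3 and 61.3 in JU, 67.0, 62.3 and 67.5 in vehicle and 59.0, 61.4 and 58.0 in sham. All its vehicle libraries lay above all its sham libraries, and the difference did not pass (0.14 ± 0.07, adjusted p = 0.206). Dnajb6, which keeps proteins with long glutamine repeats from aggregating and has a 3-unit element above, had 109, 98.9 and 111 CPM in vehicle against 124, 120.4 and 129 CPM in sham and did not pass (-0.23 ± 0.10, adjusted p = 0.154). Dnajc2, a J-domain protein bound to ribosomes, was, with Dnajc15, 1 of 2 called among 25 tested DNAJC genes and fell (-0.46 ± 0.10, adjusted p = 0.0208).

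Chordc1, a zinc-binding cochaperone of HSP90 (Entrez 66917; chromosome 9, 18292125 to 18317442), had 42.3, 44.2 and 53.9 CPM in JA, 50.5, 53.1 and 48.0 in UA, 31.7, 37.9 and 34.0 in JU, 33.0, 21 and 33.7 in vehicle and 44.3, 46.6 and 48.5 in sham. Vehicle replicate 2 was the lowest library, and vehicle lay wholly below sham (log2 fold change -0.67 ± 0.16 SE, edgeR adjusted p = 0.0307). Of the 3 HSP110 genes, Hspa4 fell (-0.47 ± 0.11, edgeR adjusted p = 0.0344), where 4.24% of all genes tested did. Hsph1, the stress-responsive HSP110, had 298, 367 and 392 CPM in JA, 382, 367 and 361 in UA, 166, 324 and 313 in JU, 291, 179 and 285 in vehicle and 380.0, 382 and 419 in sham and did not pass (-0.65 ± 0.23, adjusted p = 0.106). The 2 lowest libraries of Hsph1 were again JU replicate 1 and vehicle replicate 2. Hsp90aa1 showed the same 2 at the bottom, with 886, 659 and 811 CPM in vehicle against 1066, 1162 and 1223 CPM in sham (-0.55 ± 0.20, adjusted p = 0.107). Hspa8 had 1029, 964 and 1101 CPM in vehicle against 1148, 1232 and 1261 CPM in sham (-0.23 ± 0.12, adjusted p = 0.193) and Hsp90ab1 had 1937, 1652 and 1902 against 2055, 2097 and 2108 (-0.19 ± 0.13, adjusted p = 0.34). In these 3 abundant members all vehicle libraries lay below all sham libraries, with differences that did not pass. Hspa13, a microsomal HSP70, was the other HSP70 called besides Hspa9 (-0.36 ± 0.09, adjusted p = 0.0367).

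**Figure D3:**
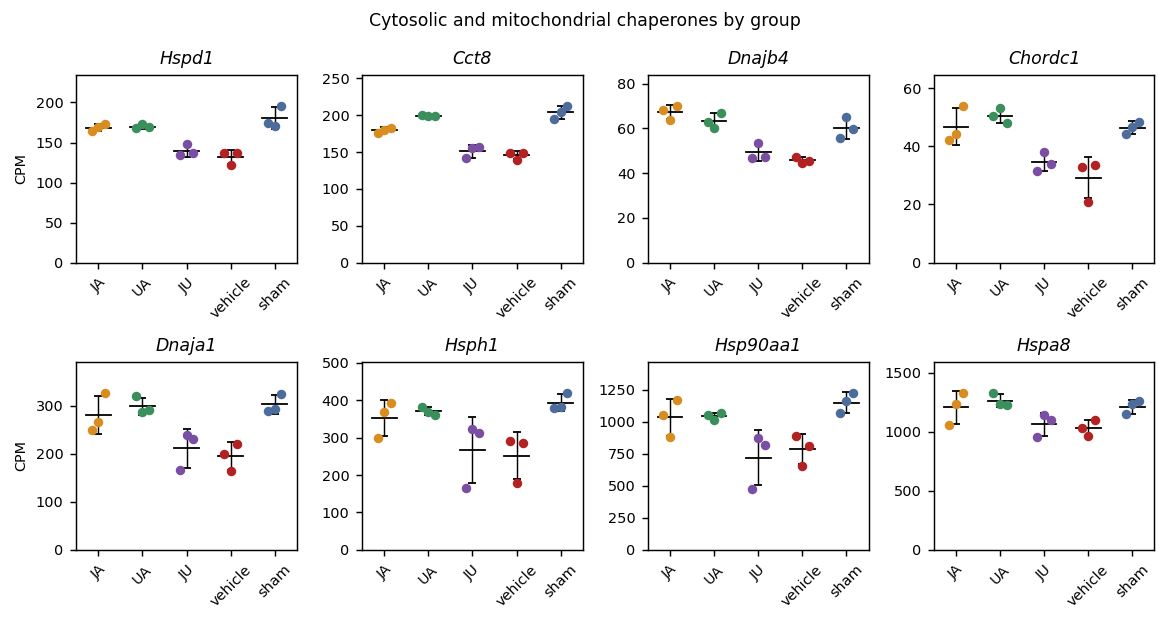
CPM (linear axis from 0) of 8 cytosolic and mitochondrial members in the 5 groups, with a point per library, the mean as a line and the SD as bars (n = 3). Hspd1, Cct8, Dnajb4 and Chordc1 separate JU and vehicle from JA, UA and sham, and Hsph1 and Hsp90aa1 have 1 low library in each of JU and vehicle.

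The called members were of low GC content, with a median of 42.6% in the 13 that fell and 49.1% in the 62 that were not called. With each library's trend on GC content removed, edgeR called 0 of the 75 members and 0% of all genes in each of the 6 contrasts. In vehicle against sham 17 members then had an unadjusted p under 0.05, where 19.6% of all genes did, and the 8 CCT subunits had a median of -0.07 on the log2 scale. Hspd1 then had a log2 fold change of -0.37 in vehicle against sham and Tcp1 one of -0.06. With JU replicate 1 also left out, 21 members passed, 17 lower and 4 higher, where 10.5% and 14.6% of all genes did. Of the 13, 6 remained, namely Cct8, Hspd1, Dnaja1, Dnaja2, Hspa4 and Cct6a, while Tcp1, Chordc1, Dnajb4, Dnajc2, Dnajc15, Hspa13 and Hspa9 did not. Without JU replicate 1 and with no GC correction 32 passed, 27 lower and 5 higher, where 16.9% and 17% of all genes did. Those 32 included all 13. Without vehicle replicate 2 only Cct8 passed, where 0.544% of all genes did. Without sham replicate 3, 0 members and 0% of all genes passed by edgeR, with 19 members (25.3%) at an unadjusted p under 0.05, where 20.1% of all genes were. The count was 4 without vehicle replicate 1, 3 without vehicle replicate 3, 5 without sham replicate 1 and 2 without sham replicate 2, where 1.9%, 2.06%, 2.38% and 0.998% of all genes passed. It was 8 without JA replicate 2 and 7 without UA replicate 2, where 3.73% and 3.51% did.

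Hspa1a, Hspb1, Hspb6 and Hspb8 had higher mean levels in vehicle than in sham without passing. JU replicate 1 and vehicle replicate 2 were their highest libraries. Stress-responsive members did not move alike. Dnajb1 was also higher without passing, while Hsph1, Hsp90aa1 and Dnajb4 had negative fold changes, of which only that of Dnajb4 passed. Hspb1, the small heat shock protein known as HSP27 (Entrez 15507; chromosome 5, 135887919 to 135889563), had 5.99, 4.16 and 4.53 CPM in JA, 4.59, 3.11 and 4.87 in UA, 37.1, 3.61 and 4.09 in JU, 5.17, 11.1 and 5.07 in vehicle and 2.68, 3.28 and 3.49 in sham. JU replicate 1 was the highest library, vehicle replicate 2 came next, and all vehicle libraries lay above all sham libraries. The difference between vehicle and sham did not pass (1.17 ± 0.72, adjusted p = 0.291). Hspb8, which works with Bag3 in selective autophagy, had 19.4, 11.4 and 9.83 CPM in JA, 27.3, 14.9 and 19.01 in UA, 96.2, 16.6 and 12.6 in JU, 18.99, 52.6 and 22.6 in vehicle and 14.5, 17.5 and 18.6 in sham, with the same 2 libraries on top (0.89 ± 0.66, adjusted p = 0.372). Hspb6, a small heat shock protein of muscle and vessel walls, had 23.3, 4.70 and 11.3 CPM in JU, 6.40, 15.4 and 8.60 in vehicle and 4.26, 5.78 and 3.60 in sham (1.15 ± 0.51, adjusted p = 0.16). Of the 7 small heat shock proteins tested, 6 had positive fold changes and 0 passed, with a median of 0.89 on the log2 scale. Hspb3 overlapped, with 2.46, 2.75 and 2.87 CPM in vehicle and 2.84, 2.19 and 2.82 CPM in sham. Hspb2 and Hspb7 were low, with 9 to 38 and 2 to 23 counts per library.

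Hspa1a, the strongly inducible HSP70, had 5.19, 3.70 and 2.65 CPM in JA, 6.80, 3.21 and 4.41 in UA, 11.9, 4.59 and 3.45 in JU, 5.22, 11.7 and 4.78 in vehicle and 3.47, 2.97 and 3.70 in sham (1.10 ± 0.49, adjusted p = 0.16). All vehicle libraries lay above all sham libraries, although JU replicate 1 and vehicle replicate 2 alone exceeded 10 CPM. Its near-identical copy Hspa1b had 7.55, 10.8 and 6.80 CPM in JA, 8.41, 3.41 and 3.54 in UA, 13.9, 6.56 and 7.05 in JU, 3.33, 5.69 and 5.78 in vehicle and 6.68, 4.84 and 4.59 in sham, so the pair did not order the groups alike. Reads from the 2 genes can be assigned to either, and part of the Hspa1a exonic bases overlaps another gene on the opposite strand, so these values are uncertain. Without JU replicate 1, Hspb1, Hspb6 and Hspa1a rose in vehicle against sham (log2 fold changes 1.16, 1.15 and 1.09, with edgeR adjusted p = 0.0116, 0.0485 and 0.0381). In that setting 5 of the 75 members (6.67%) rose, where 17% of all genes did. With the GC correction added, Hspb1 kept its call (edgeR adjusted p = 0.0298), while Hspb6 and Hspa1a did not. There 4 members (5.33%) rose, where 14.6% of all genes did.

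Several chaperones of the endoplasmic reticulum were highest in JU replicate 1. Hspa5, the HSP70 of that compartment also called BiP (Entrez 14828; chromosome 2, 34771970 to 34777547), had 308, 264 and 284 CPM in JA, 268, 270.0 and 273 in UA, 516, 236 and 218 in JU, 227, 246 and 234 in vehicle and 209, 247 and 247 in sham. Vehicle and sham overlapped (0.01 ± 0.25, adjusted p = 0.985), and JA and UA libraries all lay above vehicle. Hsp90b1 had 420.2, 345 and 389 CPM in JA, 406, 401 and 375 in UA, 499.8, 287 and 288 in JU, 312, 344 and 310.2 in vehicle and 340.1, 369 and 411 in sham (-0.21 ± 0.18, adjusted p = 0.452). Other genes overlap 10.3% of Hsp90b1 exonic bases on the opposite strand and 5.38% on the same strand. Dnajc3, which restrains the kinase that halts translation under stress, reached 123 CPM in JU replicate 1 and 73.2 CPM in vehicle replicate 2, against 50.6 to 63.7 CPM in the other libraries. Dnajb11, a soluble J-domain partner of Hspa5, reached 83.1 CPM in JU replicate 1, against 48.3 to 57.8 CPM in the others. Dnajb9, a further partner induced by unfolded proteins, did not share this, with 54.3, 55.9 and 50.9 CPM in JU, 50.4, 53.0 and 52.5 in vehicle and 62.4, 59.2 and 65.3 in sham (-0.26 ± 0.07, adjusted p = 0.0593). The microglia and neuron marker sums given above also had JU replicate 1 and then vehicle replicate 2 at their extremes. So did the astrocyte (10565 and 7915 CPM), endothelial (458 and 322 CPM) and ependymal (94.4 and 87.2 CPM) marker sums, which were highest there. Oligodendrocyte, choroid plexus and red blood cell sums were highest in other libraries. The part of these cell types in these levels was not tested.

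**Figure D4:**
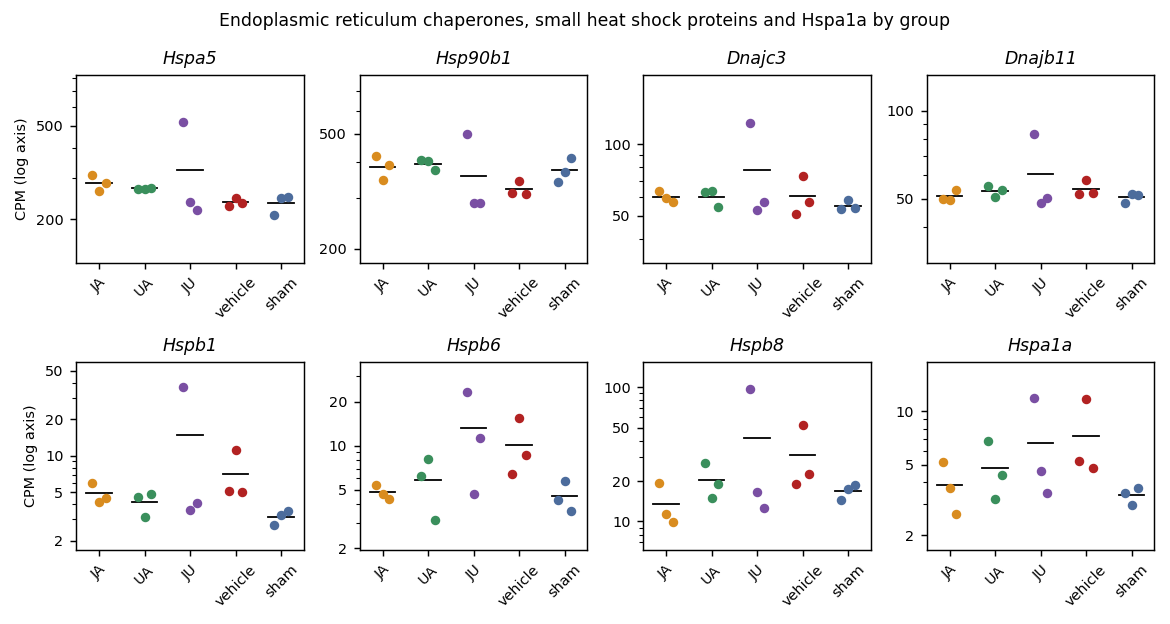
CPM (log axis) of 4 chaperones of the endoplasmic reticulum, 3 small heat shock proteins and Hspa1a in the 5 groups, with a point per library and the mean as a line. JU replicate 1 is the highest point in all 8 panels, for example 37.1 CPM for Hspb1, and vehicle replicate 2 is the highest vehicle library in each.

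JU replicate 1 was the lowest of the 15 libraries for 27 members (36%) and the highest for 19 (25.3%), while it was lowest for 29.9% and highest for 34% of all genes tested. Among its lows are members of synapses and neurons. Dnajc5, the cysteine string protein of synaptic vesicles, had 248 CPM there and 312 CPM in vehicle replicate 2, against 356 to 418 CPM in the others. Dnajc6, the neuronal auxilin that uncoats clathrin vesicles, had 229 CPM there and 293 CPM in vehicle replicate 2, against 367 to 454 CPM in the others. Neither passed in vehicle against sham (-0.26 ± 0.15, adjusted p = 0.251 for Dnajc5 and -0.35 ± 0.17, adjusted p = 0.195 for Dnajc6). The neuron marker sum was also lowest in these 2 libraries, and its part in both levels was not tested.

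JA and UA were each compared with vehicle to ask whether treatment moved these genes. Both comparisons use the same 3 vehicle libraries, as does vehicle against sham, so a shift in those libraries enters all of them. In UA, 7 members rose and 0 fell, where 3.12% of all genes rose and 3.47% passed in either direction: Cct8, Dnajb4, Chordc1, Tcp1, Hspd1, Dnaja2 and Dnaja1. In JA, 3 members rose and 0 fell, where 1.49% of all genes rose and 0.0727% fell, 1.56% together: Dnajb4, Hspd1 and Cct8. DESeq2 called 9 of 69 members higher and 0 lower in JA, where 5.71% and 1.35% of all genes were called, 7.07% together. In UA it called 16 of 72 higher and 1 lower, where 7.54% and 2.85% were, 10.4% together. UA libraries all lay above vehicle in 35 members and below in 8, where 21.7% and 22.2% of all genes did. JA libraries all lay above vehicle in 29 members and below in 7, where 17.6% and 15.7% of all genes did. The median log2 fold change of the members was 0.12 in JA and 0.15 in UA, with -0.01 over all genes in each.

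Cct8 rose in JA (0.30 ± 0.07, adjusted p = 0.0483) and in UA (0.45 ± 0.07, adjusted p = 0.0135), on the values given above for vehicle. Hspd1 rose in JA (0.35 ± 0.08, adjusted p = 0.0457) and in UA (0.36 ± 0.08, adjusted p = 0.0283). Dnajb4 rose in JA (0.56 ± 0.08, adjusted p = 0.0203) and in UA (0.47 ± 0.08, adjusted p = 0.0139), and its JA libraries reached 63.6 to 70.1 CPM. Chordc1 rose in UA (0.79 ± 0.16, adjusted p = 0.0238) and lay just outside the threshold in JA (0.68 ± 0.16, adjusted p = 0.0509). Dnaja1 had the second largest fold change among the members called in UA (0.62 ± 0.15, adjusted p = 0.0489), and in JA it did not pass (0.53 ± 0.15, adjusted p = 0.109). Whether JA and UA differed from each other in these members was not tested. The small heat shock proteins had a median of -0.54 in JA and -0.62 in UA, with 0 of 7 called, and HSP110 genes one of 0.46 and 0.49, with 0 of 3 called.

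These calls changed with single libraries and with the GC correction. In JA, edgeR called 0 members without JA replicate 2, JA replicate 3 or any 1 vehicle library, where at most 0.00652% of all genes were called, and 1 without any other library except JU replicate 1, where 0.15% to 1.41% were. In UA, it called 0 without UA replicate 1 or vehicle replicate 2, where 0.124% and 0% of all genes were called. It called 1 without UA replicate 3 or vehicle replicate 1 (0.58% and 0.241% of all genes), 2 without UA replicate 2 (0.496%) and 3 without vehicle replicate 3 (1.43%). Without vehicle replicate 2, 0% of all genes passed in either comparison, and 11 members in JA and 17 in UA had an unadjusted p under 0.05, where 9.78% and 12.5% of all genes did. Without JU replicate 1, 18 members rose and 1 fell in JA, where 11.3% and 7.76% of all genes did, and 26 rose and 2 fell in UA, where 14.8% and 13.4% did. With the GC correction as well, 0 members passed in JA and 10 in UA, where 0.00661% and 11.9% of all genes did. These 10 included Cct8 (adjusted p = 0.032), Hspd1 (adjusted p = 0.0367) and Dnajb4 (adjusted p = 0.0462), and not Chordc1 (adjusted p = 0.0558).

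JU was compared with vehicle and with JA and UA. Against vehicle 0 members were called by edgeR and 0 by DESeq2, and 0% of all genes by each. At an unadjusted p under 0.05, 1 of the 75 members passed, Hspa1b, where 1.98% of all genes did. JU and vehicle did not overlap in 2 members, Hspa1b above and Dnajc19 below, where 2.35% and 1.88% of all genes did so. With JU replicate 1 left out, the 2 remaining JU libraries lay above vehicle in 17 members and below in 11, where 18.3% and 21% of all genes did. The fold changes were small with standard errors as for the called members: Cct8 0.05 ± 0.07, Hspd1 0.08 ± 0.08 and Dnajb4 0.11 ± 0.08 on the log2 scale. Without JU replicate 1 the count was again 0, where 0.00656% of all genes were called, and Cct8 had 0.11 and Hspd1 0.11.

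Against UA, JU was lower in 2 members, Cct8 (-0.40 ± 0.07, adjusted p = 0.0436) and Dnajb4 (-0.36 ± 0.08, adjusted p = 0.0493), where 0.985% of all genes fell and 1.08% passed in either direction. Every JU library lay below every UA library in 27 members and above in 2, where 13.9% and 9.77% of all genes did so. Tcp1 and Dnaja2 lay just outside the threshold (-0.32 ± 0.07, adjusted p = 0.0547 for Tcp1 and -0.47 ± 0.11, adjusted p = 0.0547 for Dnaja2). Against JA, 0 members were called and 0% of all genes, while 19 of the 75 members had an unadjusted p under 0.05, where 20.3% of all genes did. DESeq2 called 6 members in JU against JA and 14 in JU against UA, all lower in JU, where 3.11% and 5.5% of all genes were lower and 1.43% and 4.85% higher (4.54% and 10.4% together). JU libraries lay wholly below JA in 15 members and above in 0, where 10.6% and 6.39% of all genes did so. The same count without JU replicate 1 was 26 below and 2 above for JA, where 17.8% and 12.6% of all genes did so, and 35 below and 4 above for UA, where 21% and 17.5% did. Without JU replicate 1, 1 member was called lower against UA, where 0.604% of all genes were lower and 0.0197% higher. Without JU replicate 2, 20 were called, 16 lower and 4 higher, where 8.28% and 11.7% of all genes were, and without any 1 of the other libraries 0 members and 0% of all genes were.

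Dnajb5 and Dnajb13 also had JU replicate 1 and then vehicle replicate 2 at an extreme, lowest for Dnajb5 and highest for Dnajb13. Dnajb5, a J-domain protein of heart and brain that responds to cellular stress and redox state, had 90.2, 206 and 203 CPM in JA, 143, 137 and 160.2 in UA, 51.0, 204 and 172 in JU, 105, 81.6 and 148 in vehicle and 127, 132 and 128 in sham. The highest 4 libraries were JA replicates 2 and 3 and JU replicates 2 and 3, while JA and JU replicates 1 were at 90.2 and 51.0 CPM (0.58 ± 0.42, adjusted p = 0.435 in JA against vehicle). Dnajb13, an axonemal J-domain protein of motile cilia, had 1.31, 0.771 and 0.442 CPM in JA, 1.16, 0.741 and 0.564 in UA, 4.01, 1.15 and 1.73 in JU, 2.30, 3.53 and 1.82 in vehicle and 1.16, 1.04 and 0.574 in sham, with every vehicle library above every sham, JA and UA library (1.46 ± 0.53, adjusted p = 0.105 in vehicle against sham). The 8 markers of ciliated ependymal cells, none at 0 in any library, summed to 44.5 to 87.2 CPM in vehicle and 25.3 to 32.7 CPM in sham, and their part in the Dnajb13 level was not tested. 11.2% of Dnajb13 exonic bases overlap Ucp2 on the opposite strand. Among the members, replicate spread was smallest in UA and sham and widest in JU, with a median coefficient of variation of 7.14% in JA, 5.05% in UA, 15.6% in JU, 7.58% in vehicle and 5.19% in sham, against 10.5%, 8.59%, 24.1%, 12.7% and 7.48% for all genes in the same order.

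Partners and regulators outside the symbol rule were read from 4 lists. Of all genes tested, 4.24% fell and 0.787% rose in vehicle against sham. In JA and UA against vehicle 1.49% and 3.12% of all genes rose, and 0.985% were lower in JU against UA. Of 28 tested genes of the HSF1 pathway and cochaperones, 4 fell and 0 rose in vehicle against sham (Hsf2, Ptges3, Ppid and Sugt1), with a list median of -0.12 on the log2 scale. Hsf1, the heat shock factor itself, had 24.8 ± 1.55 CPM in vehicle and 24.6 ± 1.27 in sham (log2 fold change 0.01 ± 0.07 SE, adjusted p = 0.954). Hsf2, a second heat shock factor active in development and brain, had 17.8 ± 0.891 CPM in vehicle and 25.2 ± 0.465 in sham (log2 fold change -0.50 ± 0.09 SE, adjusted p = 0.0145). Ptges3, the HSP90 cochaperone p23, had 63.1 ± 2.14 CPM in vehicle and 88.2 ± 9.86 in sham (log2 fold change -0.48 ± 0.08 SE, adjusted p = 0.0124). Hsf2 and Ptges3 rose in JA, and with Sugt1 in UA, and Ptges3 and Sugt1 were lower in JU against UA. Bag3, the inducible partner of Hspb8, had 15.5 ± 6.02 CPM in vehicle and 7.32 ± 0.888 in sham and did not pass (log2 fold change 1.09 ± 0.48 SE, adjusted p = 0.158).

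Of 9 prefoldin genes and CCT partners, 2 fell in vehicle against sham and rose in UA, the prefoldin subunit Vbp1, with 41.1 ± 0.803 CPM in vehicle and 62.2 ± 3.51 in sham (log2 fold change -0.60 ± 0.11 SE, adjusted p = 0.0154), and Txndc9, a thioredoxin-like regulator of CCT. Vbp1 was also lower in JU against UA. Of 12 genes of mitochondrial protein quality control, 1 fell, the inner membrane protease Yme1l1, with 68.8 ± 2.32 CPM in vehicle and 95.4 ± 4.11 in sham (log2 fold change -0.47 ± 0.07 SE, adjusted p = 0.00829). It rose in JA and in UA. Of 18 genes of folding and stress in the endoplasmic reticulum, 1 fell, the oxidase Ero1a, although 13 of the 18 had positive fold changes and the list median was 0.25. Beside these list counts, 4.24% of all genes tested fell in vehicle against sham and 3.12% rose in UA. Sdf2l1, an inducible partner of Hspa5, had 18.6 ± 5.76 CPM in vehicle and 6.12 ± 0.294 in sham and did not pass (log2 fold change 1.61 ± 0.50 SE, adjusted p = 0.0754). Ero1a and Canx, the membrane chaperone calnexin, rose in UA, where Canx had 387 ± 13.9 CPM in UA and 306 ± 4.33 in vehicle (log2 fold change 0.34 ± 0.08 SE, adjusted p = 0.043). In JU against vehicle edgeR called 0 genes of the 4 lists and 0% of all genes. With the GC correction it called 0 genes of the 4 lists in JA, UA or JU against vehicle or in vehicle against sham. It then called 0% of all genes in each.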

How the data were processed

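Messenger RNA libraries from mouse brain were made with a stranded kit, per the labels' protocols. The authors' deposited table holds raw read counts and FPKM per gene. Trimmomatic, HISAT2, Cufflinks, DESeq and the GRCm38 (mm10) build are listed without roles or versions, per the submitters' processing notes. Which tool counted the reads, with which annotation and strand setting, is not given in the sources used here. FPKM values, normalised by the authors for length and depth, were used only to rank levels between genes. 1 count column that matched no sample was not used.

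The counts of all 15 libraries (5 groups of 3) were fitted together with edgeR 4.0.16 in R 4.3.3: filterByExpr by group, TMM factors of 0.975 to 1.03, robust quasi-likelihood tests with 10 residual degrees of freedom from 1 coefficient per group, and Benjamini-Hochberg adjustment over 15125 genes at a threshold of 0.05. Every p-value is from this fit unless another tool is named. A standard error is the log2 fold change over the square root of F. The common biological coefficient of variation was 27.1%. Alternatives used limma 3.58.1 (voom), DESeq2 1.42.0 and the settings in the closing section. Where a library is left out, a lone or paired group is assumed to vary like the others. Closest replicates differed beyond sampling noise (smallest chi-square per degree of freedom 5.02). Same-numbered libraries deviated together (correlation over 0.1 in all 3 pairs) only in JU and JA; no label says what the numbers share. On simulated counts for vehicle against sham (15034 genes), 53 of 100 genes changed 2-fold and 83 of 100 changed 4-fold were recovered, with 5 false among 141 calls. These counts had no GC trend and no outlying library, and their changes exceeded those of every called member. They therefore do not give the recovery or the false calls among the members.

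Positions and GC content (longest transcript) came from a GENCODE annotation of GRCm38, matched for 18533 genes (97.9%) and all 81 members by Entrez ID. Promoters came from RefSeq (GRCm38.p6). The members and lists were chosen with earlier results of these data known. The rule for genes to describe took every member past the threshold in any contrast, those with the smallest p and largest changes, and a list of well-known members.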

Additional observations from a re-analysis of the deposited data

How the results depend on the processing

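Total counts differed little between libraries, and each group had 3. No called value changed sign under the alternatives below. The cause of the changes below was not tested. Values are numbers of members called, with the share of all genes called under the same setting in parentheses, in vehicle against sham (13), JA against vehicle (3), UA against vehicle (7), JU against JA (0) and JU against UA (2). With the GC correction, alone or with the replicate block, 0 were called in each (0%), and in the lists 0. GC correction without JU replicate 1 called 21 in vehicle against sham (25.1%), 0 in JA (0.00661%) and 0 in JU against UA (0%). DESeq2 called 9 in JA (7.07%), 17 in UA (10.4%), 6 in JU against JA (4.54%) and 14 in JU against UA (10.4%). Only the groups compared gave 21 in vehicle against sham (25.5%), 0 in JA (0%), 13 in UA (14.6%) and 0 in JU against UA (0%). In JA, RLE scaling gave 1 (1.18%) and no filter on low counts 1 (0.517%). In JU against UA both gave 0 (0%), and voom gave 1 (0.569%). The replicate block gave 5 in vehicle against sham (2.53%), 0 in JA (0%), 3 in UA (1.26%) and 0 in JU against UA (0%).

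The labels give no meaning to the replicate numbers. In JU against JA the deviations of all 3 same-numbered pairs correlated (0.387 to 0.701). Deviations within a group of 3 sum to 0, so these values are not independent, and whether the numbers pair samples was not tested. With the replicate block edgeR called 0 members there (0%), as without it. In each of the other comparisons at least 1 pair had a correlation under 0.1 (lowest -0.726), which does not show whether the samples share more than a number. In vehicle against sham, JA, UA and JU against vehicle, JU against JA and JU against UA, 2, 2, 2, 2, 4 and 0 of 6 libraries correlated best with their own number, a hint from the data only.

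Shares of all genes called are given for vehicle against sham, JA and UA in that order. They were 15.9%, 7.07% and 10.4% with DESeq2 and 25.5%, 0% and 14.6% with only the groups compared. GC correction without JU replicate 1 gave 25.1%, 0.00661% and 11.9%, and the replicate block 2.53%, 0% and 1.26%. In JA, RLE scaling gave 1.18%, voom 1.38% and no filter 0.517%, and in UA no filter gave 2.11%. For the HSF1 list, DESeq2 called 7 in vehicle against sham, 5 in JA and 6 in UA. Only the groups compared gave 9, 0 and 6 there, and GC correction without JU replicate 1 gave 11, 0 and 5. In JA the HSF1 count was 1 with RLE scaling or voom, 0 with no filter and 0 with the replicate block. Prefoldin genes numbered 5 in vehicle against sham with only the groups compared and 1 with the replicate block, and in UA 1 with GC correction without JU replicate 1 and 0 with the block. Mitochondrial genes numbered 0 in JA with only the groups compared and with the replicate block, and 0 in JA and UA with GC correction without JU replicate 1. For the endoplasmic reticulum list in vehicle against sham the count was 5 with DESeq2, 8 with only the groups compared, 5 with GC correction without JU replicate 1 and 0 with the replicate block. There DESeq2 called 3 in JA, and UA gave 1 with no filter, 5 with GC correction without JU replicate 1 and 0 with the block.

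Leaving out each library in turn gave 0 to 32 members in vehicle against sham, 0 to 19 in JA, 0 to 28 in UA, 0 in JU against vehicle and against JA, and 0 to 20 in JU against UA. Of all genes, 0% to 33.9% were then called in vehicle against sham, 0% to 19% in JA and 0% to 28.2% in UA. The share was at most 0.00656% in JU against vehicle, 0% in JU against JA and 0% to 20% in JU against UA. In vehicle against sham, JA, UA and JU against vehicle, JU against JA and JU against UA, members whose groups did not overlap numbered 51 to 56, 39 to 51, 45 to 49, 6 to 28, 16 to 30 and 31 to 42, an alternative chosen after seeing the data that can only raise such counts. Of all genes, 54.9% to 59.5%, 38% to 55.9%, 50.4% to 55.2%, 7.58% to 39.3%, 20.7% to 33.2% and 28.9% to 43.2% then did not overlap. The lists, to be read beside the shares of all genes called above, gave 0 to 11 for HSF1 in vehicle against sham, JA and UA. Prefoldin genes gave 0 to 5, 0 to 3 and 0 to 4, mitochondrial genes 0 to 2, 0 to 1 and 0 to 1, and the endoplasmic reticulum list 0 to 10, 0 to 5 and 0 to 10, with 0 for all in JU against vehicle.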
